A study of Mus musculus with 6 samples.

Results

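The transcripts of the glucocorticoid receptor and of the chaperones and enzymes that work with it were followed in mouse quadriceps muscle. The members are the 10 genes Nr3c1, Nr3c2, Hsp90aa1, Hsp90ab1, Fkbp4, Fkbp5, Ptges3, Stip1, Stub1 and Hsd11b1, chosen by symbol. They accounted for 54 of the 105129 transcript rows and 10 of the 33641 gene symbols of the expression table. The study took poly-A selected, stranded RNA-seq libraries from male littermates of heterozygous parents, at 4 months of age, with tissue frozen at about ZT4, that is 4 hours into the light phase. In the first group, called homozygous here, 3 libraries carried the genotype "rs6190 allele +/+". In the second group, called WT after the sample titles, 3 libraries carried "ref allele +/+". The identifier rs6190 names a human coding variant of NR3C1, which encodes this receptor. The labels name no driver, no Cre and no drug treatment, and for the strain background they name nothing. Nothing states whether a library is 1 animal, so p-values measure the spread between these libraries. TPM cannot tell the alleles apart, so the genotype labels have no check here.

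The glucocorticoid receptor is a transcription factor that waits in the cytoplasm until it binds hormone. Hsp70 and Hsp90 fold it there in a cycle: Stip1 (Hop) hands the receptor from Hsp70 to Hsp90, Ptges3 (p23) holds the closed Hsp90 complex, and the immunophilins Fkbp5 (FKBP51) and Fkbp4 (FKBP52) compete for the same Hsp90 site. Fkbp4 links the complex to dynein and nuclear import, whereas Fkbp5 lowers hormone affinity and is itself a target gene of the receptor. Stub1 (CHIP) is a ubiquitin ligase that marks chaperone clients for the proteasome. Nr3c2, the mineralocorticoid receptor, binds the same hormone, and Hsd11b1 regenerates active glucocorticoid inside the cell with NADPH that H6pd supplies. In muscle, glucocorticoid signalling is known for its effects on protein breakdown and on fuel use.

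The libraries held an estimated 15.8 to 21.7 M fragments (M, 1000000). The muscle fibre list (10 of 10 genes reached 1 TPM in 3 libraries or more, among them Acta1 and Ckm) fitted the tissue label. WT replicate 3 stood apart: its correlations with the other libraries across genes were 0.951 to 0.965, against 0.972 to 0.987 among the rest. Its 12 fast-fibre genes summed to 228952 TPM, against 96101 to 130318 TPM in the other 5 libraries. Most genes read higher in the homozygous libraries, with a positive log2 fold change for 85.8% of the 11099 genes tested and a median of 0.26. The members are therefore read against that median. Values are TPM (an abundance per transcript length, scaled to 1000000 per library). Fold changes compare log2(TPM + 1), homozygous minus WT, and a call is a Benjamini-Hochberg adjusted p under 0.05 in limma over all genes tested.

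Both receptors were more abundant in all 3 homozygous libraries than in any WT library, and none of the 10 members was called. Nr3c1 averaged 19.7 ± 0.256 TPM in homozygotes and 11.5 ± 3.37 TPM in WT, and Nr3c2 averaged 2.82 ± 0.813 and 1.27 ± 0.589 TPM (SD, n = 3 each). In limma 0 of 10 members were called, against 0% of all genes, and 3 members (Nr3c1, Nr3c2 and Hsp90ab1) had an unadjusted p under 0.05, against 24.3% of all genes. The homozygous libraries lay above all WT libraries for 3 of 10 members (Nr3c1, Nr3c2 and Fkbp4), near the 34.7% of all genes for which they did. No member had all homozygous libraries below, as 0.730% of all genes had. The median log2 fold change of the members was 0.43, and 9 of 10 were positive, against 85.8% of all genes. That median was 0.16 without WT replicate 3, 0.14 with array weights, 0.19 after quantile normalization and 0.12 after median centring, and 6 of 10 were positive after either of these scalings.

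**Figure D1:**
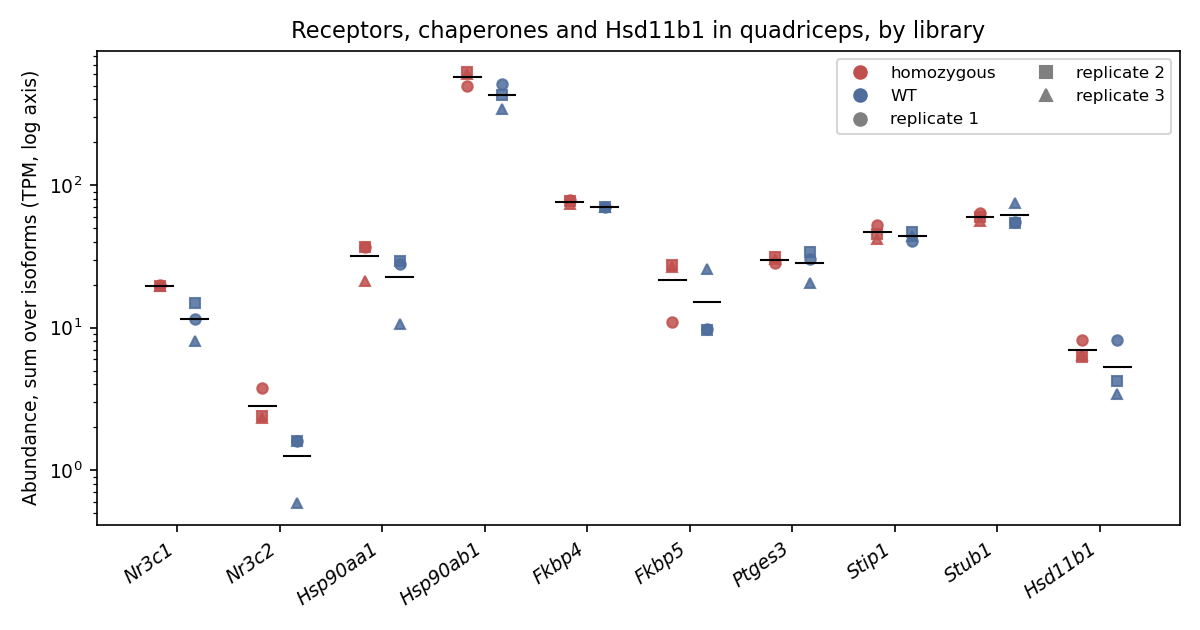
Abundance of the 10 members by library, as TPM summed over isoforms on a log axis. Colours give the genotype, marker shapes the replicate number and black bars the group mean of 3 libraries. Hsp90ab1 lies highest and Nr3c2 lowest, and the groups are separate for Nr3c1, Nr3c2 and Fkbp4.

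Over the 6 libraries Hsp90ab1, Fkbp4, Stub1 and Stip1 were the most abundant members, and the receptors and Hsd11b1 were the least abundant. Hsp90ab1 was highest, at 344 to 620 TPM. Fkbp4 (70.1 to 78.3 TPM) and Stub1 (54.5 to 75.0 TPM) overlapped, while Stip1 (40.7 to 52.5 TPM) lay below both of them in every library's range. Ptges3 (20.5 to 34.1 TPM), Hsp90aa1 (10.5 to 37.0 TPM), Fkbp5 (9.70 to 27.4 TPM) and Nr3c1 (8.07 to 20.0 TPM) overlapped each other in turn. Hsd11b1 ranged from 3.40 to 8.22 TPM and Nr3c2 from 0.586 to 3.76 TPM. Fkbp4 varied least, with a coefficient of variation of 4.99% over the 6 libraries, and Nr3c2 and Fkbp5 varied most, with 52.0% and 49.1%.

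Nr3c1, which encodes the glucocorticoid receptor (ENSMUSG00000024431.15, GRCm38 chromosome 18, 39410545 to 39519421, minus strand), measured 20.0, 19.7 and 19.5 TPM in homozygous replicates 1, 2 and 3. In WT replicates 1, 2 and 3 it measured 11.5, 14.8 and 8.07 TPM. The homozygous values lay within 1 TPM of each other, the WT values were spread, and the groups did not overlap. Its log2 fold change was 0.77 (SE 0.20), which is 0.51 above the median of all genes, and did not pass (limma, adjusted p 0.168). Without WT replicate 3 it was 0.56 (SE 0.13; limma, adjusted p 0.161). In a limma fit with array weights, libraries that scattered more about their group mean counted less, and WT replicate 3 received a weight of 0.199. There Nr3c1 was the only member called, at 0.67 (limma, adjusted p 0.0396), in a fit that called 7.30% of all genes. The groups also stayed apart after quantile normalization, with a log2 fold change of 0.48, where 8.05% of all genes had the homozygous libraries above, and with a length trend removed it was 0.39. Several marker sums moved the same way as Nr3c1, Nr3c2 and Fkbp4: slow fibre (1902, 9714 and 2241 TPM in homozygous replicates 1, 2 and 3 against 1738, 1123 and 245 TPM in WT), Schwann cell (28.5 to 104 against 15.9 to 25.2 TPM) and smooth muscle (90.8 to 100.1 against 65.3 to 87.1 TPM). The satellite cell sum was 10.8 to 14.8 TPM against 6.34 to 10.5 TPM. It was mostly Cdh15, whose groups overlapped (8.20 to 12.5 against 4.98 to 8.50 TPM). Of the 5 satellite cell genes 1 had all homozygous libraries above, and 2 reached 1 TPM in 3 libraries or more. The immune sum, mostly Ighm, ran the other way (35.4 to 66.8 against 91.5 to 108 TPM). Within the immune list Cd68 (3.34 to 4.73 against 1.08 to 2.92 TPM) and Csf1r (2.61 to 3.91 against 0.965 to 2.45 TPM) were higher in all homozygous libraries, opposite to that sum. Other macrophage genes of the list overlapped between the groups: Adgre1 (0.164 to 0.540 against 0.101 to 0.436 TPM), Mrc1 (1.31 to 2.02 against 1.10 to 2.54 TPM) and Itgam (0.377 to 0.650 against 0.0785 to 0.804 TPM). Macrophage genes as a set thus showed no common direction. Of these 5 lists all genes were in the table and none was at 0 in every library. Their part in these differences was not tested, and in bulk RNA fewer cells of a type and less RNA per cell cannot be told apart.

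The Nr3c1 signal was divided over 8 annotated transcripts, of which Nr3c1-204, Nr3c1-203 and Nr3c1-208 passed the filter on low values. Nr3c1-204 begins at the 5′ edge of the common exon that holds the start of the coding sequence (39485998 to 39487245). The same exon is exon 2 of Nr3c1-203, so Nr3c1-204 is a model without an upstream first exon. It measured 13.7, 13.2 and 13.7 TPM in homozygotes and 9.01, 11.1 and 7.15 TPM in WT. Nr3c1-203 encodes the same coding sequence of 2376 nt and adds a noncoding first exon of 107 nt upstream (39490568 to 39490674). It measured 3.48, 3.88 and 3.83 TPM in homozygotes and 1.09, 2.47 and 0.571 TPM in WT. Nr3c1-208, an incomplete model of 1891 nt with its own first exon of 412 nt (39489477 to 39489888), measured 1.70, 1.54 and 1.35 TPM against 0.540, 0.615 and 0.0413 TPM. All 3 transcripts were higher in every homozygous library than in any WT library, which held for 25.6% of the 21165 isoforms tested. Nr3c1-208 reached 1 TPM only in the homozygous libraries, so it passed the filter through them and had to lie above WT. Their log2 fold changes were 0.54 (SE 0.18) for Nr3c1-204, 1.07 (SE 0.31) for Nr3c1-203 and 0.88 (SE 0.26) for Nr3c1-208. None was called (limma, adjusted p 0.289, 0.273 and 0.274), and without WT replicate 3 the fold changes were 0.40, 0.81 and 0.68. After quantile normalization they were 0.30, 0.77 and 0.52, and Nr3c1-204 was 0.18 with a length trend removed. With a pseudocount of 0.1 Nr3c1-208 was 2.02.

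The leading transcript made up a smaller part of the receptor's signal in all 3 homozygous libraries than in any WT library. Nr3c1-204 held 68.6%, 66.8% and 70.3% of the gene's TPM in homozygous replicates 1, 2 and 3, against 78.2%, 75.3% and 88.6% in WT. Its mean share was 68.6 ± 1.76% against 80.7 ± 6.99% (SD, n = 3 each), a difference of -12.1 percentage points. Nr3c1-203 held 17.4%, 19.7% and 19.6% against 9.46%, 16.7% and 7.08%, a difference of 7.84 points. Nr3c1-208 held 8.50%, 7.81% and 6.92% against 4.69%, 4.15% and 0.512%, a difference of 4.63 points. In each of these 3 shares the groups did not overlap, as happened for 18.1% of 18883 isoform shares (homozygous libraries above in 9.12% and below in 8.98%). Each had p = 0.10 in a two-sided exact permutation test over the 6 libraries, the smallest p that 3 against 3 can give (adjusted p 0.467 over 14 shares compared). Without WT replicate 3 the differences were -8.17, 5.83 and 3.32 points for Nr3c1-204, Nr3c1-203 and Nr3c1-208, with groups still apart. The shares of a gene add up to its whole signal, so these 3 differences depend on each other and are not separate results. Nr3c1-208 also reached 1 TPM only in the homozygous libraries, so it meets the filter of the compared isoforms only through them. A share is taken within a library, so scaling between libraries does not move it.

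Grouped by annotation, the 6 Nr3c1 rows with an upstream first exon held 29.7%, 32.7% and 29.7% of the signal in homozygous libraries. In WT libraries they held 21.1%, 24.7% and 11.4%. The means were 30.7 ± 1.77% and 19.1 ± 6.89% (SD, n = 3 each), and the groups did not overlap (exact permutation p = 0.10). These rows are all but Nr3c1-204 and Nr3c1-202, so this difference largely restates the share of Nr3c1-204. Nr3c1-204 has no base that Nr3c1-203 lacks, while Nr3c1-203 has 109 nt that Nr3c1-204 lacks, so reads outside those 109 nt match both. Another annotated difference is an exon that is 3 nt longer at its 3′ end in Nr3c1-208 and Nr3c1-202 (39428614 to 39428780, in place of 39428617 to 39428780). These 2 rows summed to 2.04, 1.63 and 1.35 TPM against 0.616, 0.615 and 0.0413 TPM. The estimated fragments behind Nr3c1-208 were 54.3, 37.7 and 33.6 in the homozygous and 15.7, 15.9 and 1.15 in the WT libraries. Those behind Nr3c1-203 were 402, 344 and 345 against 115, 230 and 57.6.

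The 4 rows that hold a complete coding sequence for the receptor (Nr3c1-201, Nr3c1-202, Nr3c1-203 and Nr3c1-204) summed to 17.4 ± 0.237 TPM in homozygotes and 10.5 ± 2.96 TPM in WT (mean ± SD, n = 3 each). The minor rows gave little signal. Nr3c1-206 ranged from 0.177 to 1.03 TPM, on 1.002 to 5.03 estimated fragments, and its share was 3.09 ± 2.14% against 3.17 ± 0.874% (SD, n = 3 each). Nr3c1-205 was above 0 in 3 of 6 libraries, at 0.343 TPM or less, and its shares overlapped. Nr3c1-202 was above 0 in 3 libraries at up to 0.345 TPM, and Nr3c1-207 in 2 libraries at up to 0.220 TPM. Nr3c1-201 was listed at 0 in all 6 libraries.

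**Figure D2:**
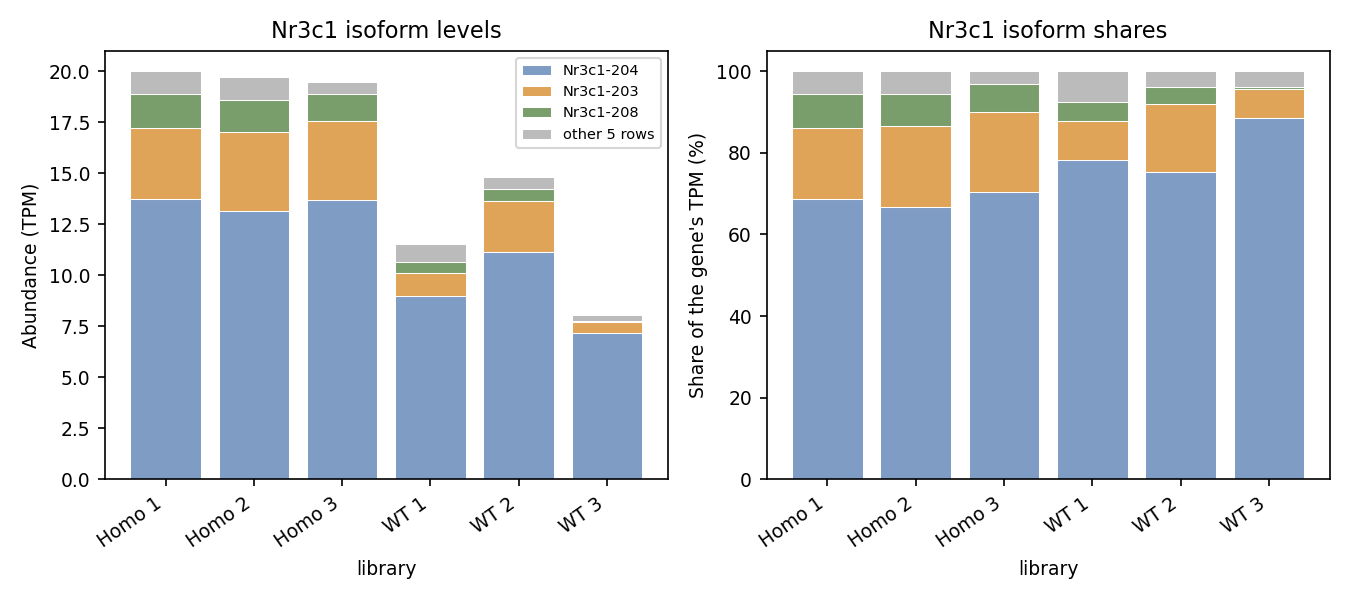
Nr3c1 by transcript in each library, as TPM (left) and as a percentage of the gene's TPM (right). Homo 1 to 3 are the homozygous and WT 1 to 3 the WT libraries, and the 5 minor transcripts are stacked together. Nr3c1-204 fills 66.8% to 70.3% of the homozygous bars and 75.3% to 88.6% of the WT bars.

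Across the 6 libraries the genes whose level followed Nr3c1 most closely were Pacs2, Rif1, Nup155, Sh3bp5l and Exoc3. Pearson's r on the log2 scale was 0.998 for Pacs2 and Rif1, 0.996 for Nup155 and Sh3bp5l and 0.995 for Exoc3. The 6 points share their library's depth and composition, and r was above 0.9 for 1734 genes (15.6% of those tested), so closeness to Nr3c1 was common in these libraries.

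Nr3c2, the mineralocorticoid receptor (chromosome 8, 76899442 to 77245012, plus strand), measured 3.76, 2.39 and 2.31 TPM in homozygotes and 1.61, 1.60 and 0.586 TPM in WT. The homozygous libraries were all higher. Its log2 fold change, 0.77 (SE 0.25), lay 0.51 above that of the median gene and did not pass (limma, adjusted p 0.168). Without WT replicate 3 it was 0.53, and after quantile normalization it was 0.49 with groups still apart. With a pseudocount of 0.1 it was 1.18. Nr3c2-203 carried 100% of the signal in 3 libraries and 55.6% in homozygous replicate 1, where the 270 nt row Nr3c2-207 added 1.35 TPM. That short row rested on 2.93 estimated fragments there and was listed at 0 in every other library, yet it enters the gene's fold change. Nr3c2-203 alone was 2.09, 2.39 and 1.82 TPM against 1.37, 1.60 and 0.586 TPM, with a log2 fold change of 0.53 (SE 0.25) and an adjusted p of 0.345 in limma, and it was 0.32 without WT replicate 3 and 0.23 after quantile normalization. Nr3c1 exceeded Nr3c2 by a ratio of 5.32, 8.24 and 8.42 in the homozygous and 7.14, 9.26 and 13.8 in the WT libraries. The groups overlapped in this ratio (log2 difference -0.43, exact permutation p = 0.4).

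The 2 cytosolic Hsp90 genes stood far apart in level. Hsp90ab1, the constitutive form (chromosome 17, 45567775 to 45573271, minus strand), measured 497, 620 and 606 TPM in homozygotes and 513, 427 and 344 TPM in WT. Homozygous replicate 1 lay below WT replicate 1, so the groups overlapped. The log2 fold change was 0.44 (SE 0.18), 0.17 above the median (limma, adjusted p 0.201), and it was 0.29 without WT replicate 3 and 0.13 after median centring. Hsp90aa1, the stress-inducible form (chromosome 12, 110690605 to 110702728, minus strand), measured 37.0, 37.0 and 21.4 TPM against 28.1, 29.3 and 10.5 TPM. Replicate 3 was the lowest library of each group, and the groups overlapped. The log2 fold change was 0.56 (SE 0.39; limma, adjusted p 0.375), and 0.10 without WT replicate 3. Hsp90aa1 stood at 0.0744, 0.0598 and 0.0353 of Hsp90ab1 in the homozygous and at 0.0549, 0.0686 and 0.0307 in the WT libraries (exact permutation p = 0.6).

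Much of the spread in Hsp90aa1 sat in 1 short row. Hsp90aa1-204, a fragment of 325 nt annotated as retained intron, measured 17.4, 12.5 and 0.00039 TPM in homozygous replicates 1, 2 and 3. In WT it measured 11.6 and 6.89 TPM in replicates 1 and 2 and was listed at 0 in replicate 3. Its estimated fragments were 55.3 and 29.6 in homozygous replicates 1 and 2 and 32.8 and 18.2 in WT replicates 1 and 2; on so short a row each fragment counts for more TPM. Rows annotated as retained intron thus made up 47.6%, 40.1% and 0.00182% of Hsp90aa1 in homozygous and 41.0%, 23.5% and 0% in WT libraries. Hsp90aa1-204 shares 312 nt with each of the coding transcripts Hsp90aa1-201 and Hsp90aa1-202, and only 13 nt are its own. Most reads on it therefore also match coding transcripts, and these percentages do not measure how much of Hsp90aa1 retains an intron. Protein-coding rows alone summed to 19.4, 22.2 and 21.4 TPM against 16.6, 22.4 and 10.5 TPM, or 20.99 ± 1.46 against 16.5 ± 5.95 TPM (SD, n = 3 each), and overlapped (exact permutation p = 0.4). With protein-coding rows only, the log2 fold change was 0.38 (limma, adjusted p 0.310).

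The 2 protein-coding transcripts of Hsp90aa1 share a coding sequence of 2199 nt and differ in their ends, where Hsp90aa1-202 has 529 nt of its own and Hsp90aa1-201 has 100 nt. Hsp90aa1-202 measured 5.35, 5.32 and 4.95 TPM in homozygotes and 2.87, 2.99 and 1.16 TPM in WT. All homozygous libraries were above all WT libraries, on 222 to 307 against 58.3 to 151 estimated fragments. The log2 fold change was 0.95 (SE 0.28; limma, adjusted p 0.273), and 0.66 without WT replicate 3. Hsp90aa1-201 measured 14.0, 16.5 and 16.5 TPM against 13.7, 19.4 and 9.38 TPM, and these groups overlapped. Its log2 fold change of 0.19 became -0.0558 after quantile normalization and -0.0613 without WT replicate 3. Of the 31-base stretches of Hsp90aa1-201, 70.8% also occur in other annotated genes, chiefly Gm12346 (64.2%), which was at 0.372 TPM or less in every library. How reads were divided between such copies is not stated.

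**Figure D3:**
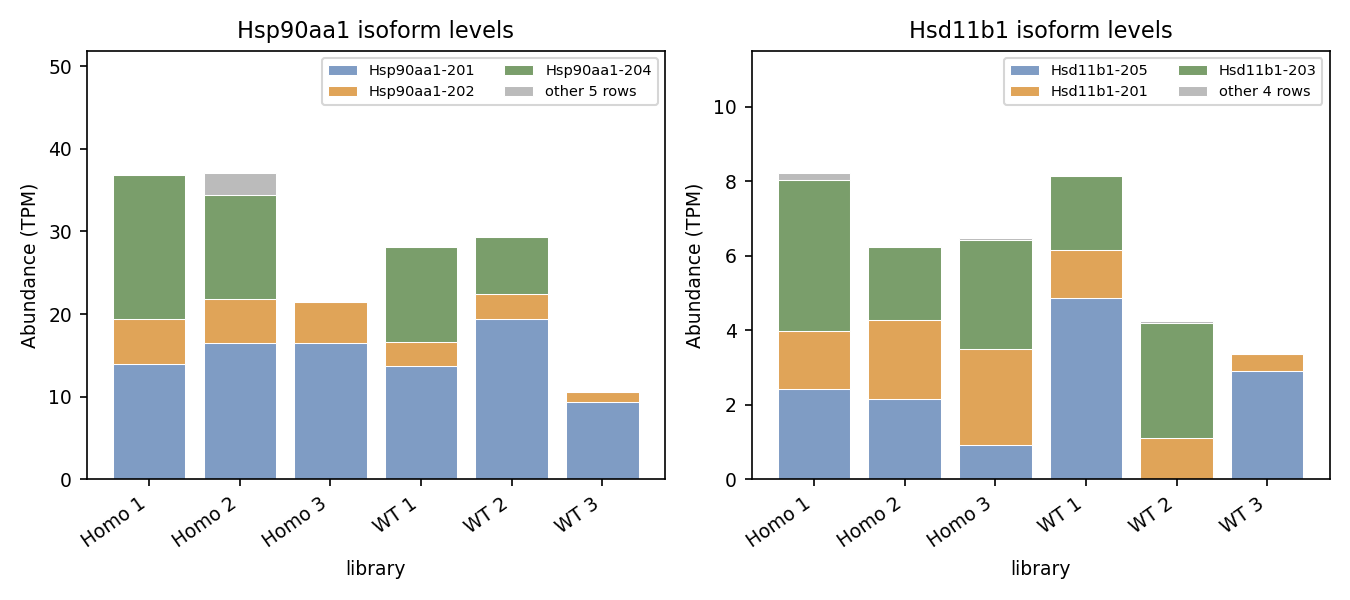
Hsp90aa1 (left) and Hsd11b1 (right) by transcript in each library, in TPM. The retained-intron row Hsp90aa1-204 is present in replicates 1 and 2 of each genotype and near or at 0 in replicate 3, and the order of the 3 main Hsd11b1 transcripts changes from library to library.

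Across all members 22 isoforms passed the filter on low values and 0 were called in limma, against 0.0425% of all isoforms. An unadjusted p under 0.05 was reached by 6 of the 22, against 15.7% of all isoforms. The homozygous libraries lay above in 7 (3 of Nr3c1 and 1 each of Nr3c2, Hsp90aa1, Fkbp4 and Hsd11b1) and below in 0, against 25.6% and 2.11% of all isoforms. Of these 7, Nr3c1-208 passed the filter only through the homozygous libraries, so its place above WT was fixed in advance. The median log2 fold change of the 22 was 0.49, against 0.25 for all isoforms, and 18 of the 22 were positive, against 76.7% of all isoforms.

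The immunophilins differed in how steady they were. Fkbp4 (chromosome 6, 128429735 to 128438677, minus strand) measured 78.3, 76.9 and 74.0 TPM in homozygotes and 70.1, 70.1 and 70.6 TPM in WT. The groups were apart by a narrow gap, with means of 76.4 ± 2.20 and 70.3 ± 0.299 TPM (SD, n = 3 each). Its log2 fold change, 0.12 with an SE of 0.11 (limma, adjusted p 0.484), was -0.15 relative to the median of all genes. The direction turned with the scaling: it was -0.10 after quantile normalization, -0.18 after median centring and -0.15 with a length trend removed, each with all homozygous libraries below all WT libraries. With mitochondrial transcripts left out the groups overlapped. Quantile normalization left 7.34% of all genes with the homozygous libraries below. The incomplete 891 nt transcript Fkbp4-203 measured 2.44, 2.48 and 3.26 TPM in homozygotes, 2.43 TPM in WT replicate 2 and was listed at 0 in WT replicates 1 and 3.

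Fkbp5, the inhibitory immunophilin and a target of the receptor (chromosome 17, 28399094 to 28517527, minus strand), measured 11.04, 27.4 and 26.5 TPM in homozygous replicates 1, 2 and 3. In WT replicates 1, 2 and 3 it measured 9.79, 9.70 and 25.9 TPM. Homozygous replicate 1 sat with the 2 lower WT libraries and WT replicate 3 with the 2 higher homozygous libraries, so both groups held low and high libraries. Its log2 fold change was 0.53 (SE 0.46; limma, adjusted p 0.457). Without WT replicate 3 it was 0.97 (SE 0.39; limma, adjusted p 0.227), and without homozygous replicate 1 it was 0.94 (limma, adjusted p 0.253). In each of these 2 fits the groups no longer overlapped. Fkbp5-201 carried 92.2% to 97.1% of the signal in every library. The ratio of Fkbp5 to Fkbp4 was 0.141, 0.356 and 0.358 in the homozygous and 0.140, 0.138 and 0.367 in the WT libraries, and did not separate the genotypes (log2 difference 0.45, exact permutation p = 0.8).

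**Figure D4:**
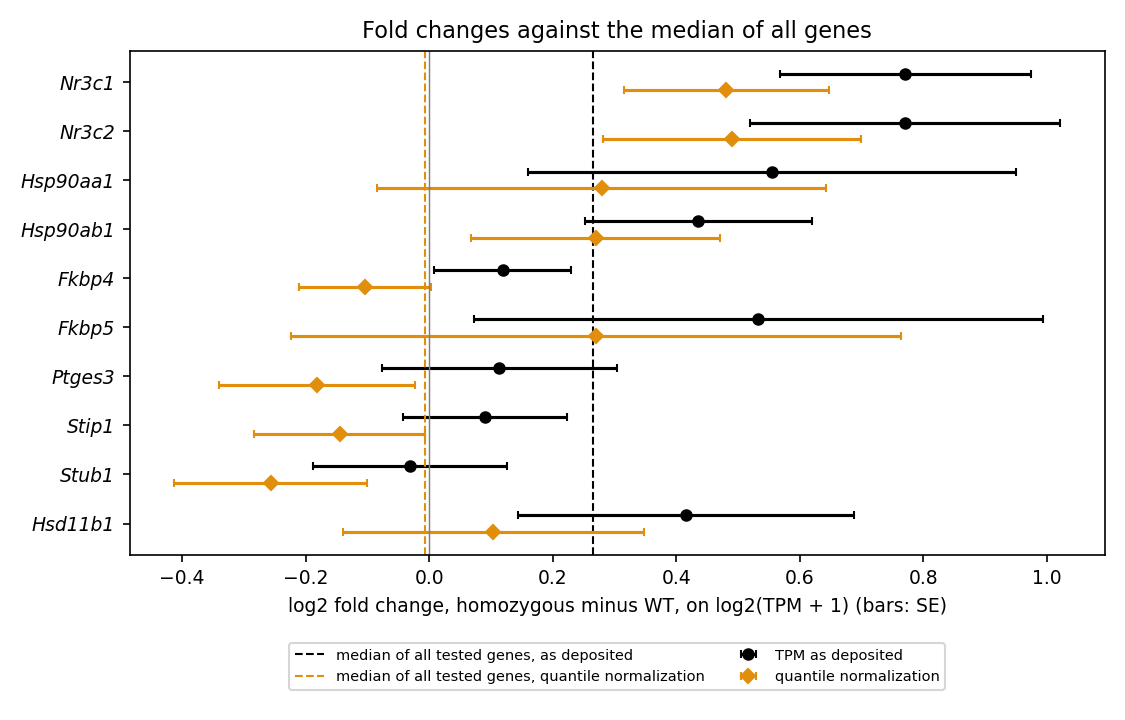
Log2 fold change of each member, homozygous minus WT on log2(TPM + 1), with its SE, from TPM as deposited (black circles) and after quantile normalization (orange diamonds). Dashed lines mark the median of all genes under each scaling, 0.26 and -0.01. Nr3c1 and Nr3c2 lie above both medians, whereas Fkbp4, Ptges3 and Stip1 change sign between the scalings.

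In the remaining chaperone partners the groups overlapped. Ptges3, which holds the closed Hsp90 complex (chromosome 10, 128058954 to 128077272, plus strand) measured 28.5, 31.2 and 30.4 TPM in homozygotes and 30.2, 34.1 and 20.5 TPM in WT, with a log2 fold change of 0.11 (SE 0.19) and an adjusted p of 0.696 in limma. WT held both the highest and the lowest library. It was -0.18 after quantile normalization and -0.0942 without WT replicate 3. The shorter coding transcript Ptges3-202 was 9.51 TPM in homozygous replicate 2 and 1.70 to 3.74 TPM in the other 5 libraries, and Ptges3-201 there had a share of 68.3%, against 86.7% to 90.0% elsewhere. A gene named Ptges3-ps shares 22.8% of the 31-base stretches of Ptges3-201.

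Stip1, the Hsp70 to Hsp90 adaptor (chromosome 19, 7020702 to 7039967, minus strand), measured 52.5, 45.5 and 42.1 TPM in homozygotes and 40.7, 46.6 and 43.7 TPM in WT. The log2 fold change was 0.09 (SE 0.13; limma, adjusted p 0.654), and -0.14 after quantile normalization. Stub1, the ligase (chromosome 17, 25830505 to 25833404, minus strand), measured 63.7, 59.5 and 55.7 TPM against 55.1, 54.5 and 75.0 TPM. WT replicate 3 was the highest library here, and the log2 fold change, -0.03 with an SE of 0.16 (limma, adjusted p 0.905), was 0.12 without it, with the homozygous libraries then above. Stub1-201 shares 38.0% of its 31-base stretches with Jmjd8 (4.97 to 7.68 TPM). The ratio of Stip1 to Stub1 was 0.823, 0.765 and 0.755 against 0.739, 0.856 and 0.582, with overlapping groups (exact permutation p = 0.7).

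Hsd11b1, which regenerates active glucocorticoid (chromosome 1, 193221634 to 193264075, minus strand), measured 8.22, 6.27 and 6.47 TPM in homozygotes and 8.15, 4.25 and 3.40 TPM in WT. WT replicate 1 reached the homozygous range, and the log2 fold change was 0.42 (SE 0.27; limma, adjusted p 0.338). It was 0.73 without WT replicate 1, 0.20 without WT replicate 3 and 0.10 after quantile normalization. Fibroblast and adipocyte marker sums, for cells that also express this gene, overlapped between the groups (185 to 222 against 104 to 268 TPM, and 149 to 187 against 158 to 179 TPM). The adipocyte sum was mostly Fabp4 (140 to 181 against 140 to 165 TPM) and says little about the other genes of that list. Of its 9 genes, 4 reached 1 TPM in 3 libraries or more. The 3 of its 7 transcripts that passed the filter on low values begin at different places. Hsd11b1-205 starts at a distal first exon (193263948 to 193264075) and measured 2.43, 2.17 and 0.917 TPM in homozygotes, 4.88 and 2.90 TPM in WT replicates 1 and 3, and was listed at 0 in WT replicate 2. Hsd11b1-201, which starts at 193242629, measured 1.56, 2.11 and 2.59 TPM against 1.27, 1.10 and 0.465 TPM, with a log2 fold change of 0.68 (SE 0.26) and an adjusted p of 0.299 in limma, or 0.37 after quantile normalization. Hsd11b1-203, which starts at 193241598, held 49.3%, 31.2% and 45.2% of the gene's signal in homozygous replicates 1, 2 and 3. In WT it held 24.5% and 73.2% in replicates 1 and 2 and almost none in replicate 3. Estimated fragments for these 3 transcripts were 98.3 or fewer in every library.

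H6pd, which supplies NADPH to this enzyme, is not a member and was higher in all homozygous libraries, at 29.5, 33.7 and 38.8 TPM against 22.1, 25.2 and 16.3 TPM (log2 fold change 0.67, SE 0.19; limma, adjusted p 0.168). The ratio of Hsd11b1 to H6pd was 0.278, 0.186 and 0.167 in the homozygous and 0.368, 0.168 and 0.209 in the WT libraries (exact permutation p = 0.6). Over the 5 ratios compared between members or partners, every Benjamini-Hochberg adjusted p was 0.8.

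Upstream sequence was available for 7 of the 10 members (RefSeq, GRCm38.p6), taking the 250 bases before each start. Part of a heat shock element, the motif that heat shock factors bind at chaperone genes, was searched as GAANNTTC, which reads the same on both strands. This is a short piece of the element, so a match is not a complete element. GAANNTTC occurred in 3 of the 7 windows (Nr3c2, Fkbp4 and Stub1), against 6.69% of 32851 windows. The windows of Stub1 and Hsd11b1 begin inside annotated exons of those genes. Those of Nr3c2 and Fkbp5 also lie inside the annotated genes, because longer transcripts start further upstream (Nr3c2-204 at 76899772 and Fkbp5-202 at 28517524). Of the 3 matches only that of Fkbp4 is therefore upstream of its annotated gene. The everted form TTCNNGAA occurred in 0 of 7 (7.17% of all windows), and ACANNNTGT, the core spacing of a glucocorticoid response element, in 0 of 7 (5.84%). The steady immunophilin Fkbp4, the variable immunophilin Fkbp5 and the receptor Nr3c2 are shown 5′ to 3′, with the GAANNTTC match in capitals. Each is shown up to the first annotated exon base within its window, if there is one. They are Fkbp4 at chr6:128438678-128438906 (minus strand), Fkbp5 at chr17:28486150-28486399 (minus strand) and Nr3c2 at chr8:76902080-76902287 (plus strand).
Fkbp4: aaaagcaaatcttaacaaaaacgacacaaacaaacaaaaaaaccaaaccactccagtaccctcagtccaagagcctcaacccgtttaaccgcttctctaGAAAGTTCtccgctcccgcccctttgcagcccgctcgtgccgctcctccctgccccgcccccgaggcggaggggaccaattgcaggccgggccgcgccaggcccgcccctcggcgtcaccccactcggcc
Fkbp5: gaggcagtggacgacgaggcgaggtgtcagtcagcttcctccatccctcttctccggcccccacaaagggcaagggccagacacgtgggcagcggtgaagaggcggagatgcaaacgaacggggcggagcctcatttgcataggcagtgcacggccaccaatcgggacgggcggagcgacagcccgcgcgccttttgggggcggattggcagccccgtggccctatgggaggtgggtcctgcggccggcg
Nr3c2: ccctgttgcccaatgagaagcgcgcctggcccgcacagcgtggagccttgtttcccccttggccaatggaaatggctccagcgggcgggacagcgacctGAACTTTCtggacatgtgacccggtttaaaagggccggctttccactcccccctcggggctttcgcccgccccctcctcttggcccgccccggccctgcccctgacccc
In Fkbp4 and in Nr3c2 the match begins 151 bases before the RefSeq start, and Fkbp5 has no match in this window. GC content of the full windows was 63.2% for Fkbp4, 68.0% for Fkbp5 and 68.4% for Nr3c2, against a median of 52.4% over all windows. A match here describes letters and not binding.

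Genes around the receptor complex were followed in 5 lists, and in limma 0 genes of any list were called in either direction. Among other Hsp90 and Hsp70 cochaperones, 42 of 43 genes were tested. The log2 fold change was positive for 35 of these, 12 had an unadjusted p under 0.05, 16 had all homozygous libraries above and 1 had all below. Over all genes tested 85.8% were positive, 24.3% had an unadjusted p under 0.05, 34.7% had all homozygous libraries above and 0.730% had all below. The list's median was 0.24, beside 0.26 for all genes. Cdc37, which brings kinases to Hsp90, measured 66.6, 70.8 and 62.9 TPM against 51.4, 44.7 and 49.0 TPM. Hspa1a, an inducible Hsp70, measured 5.74, 11.9 and 4.53 TPM against 2.88, 3.24 and 1.46 TPM. Groups were apart in these 2 genes, with log2 fold changes of 0.46 (SE 0.12) and 1.19 (SE 0.34; limma, adjusted p 0.168 each).

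Import factors, coregulators and chromatin partners of the receptor numbered 49, all tested. Their median was 0.32, beside 0.26 for all genes, and 46 were positive (85.8% of all genes). An unadjusted p under 0.05 was reached by 13 (24.3% of all genes), 25 had all homozygous libraries above (34.7%) and 0 had all below (0.730%). Smarca2, an ATPase of the SWI/SNF remodelling complex, measured 40.3, 39.0 and 43.6 TPM against 30.3, 27.6 and 23.7 TPM. The groups were apart, and its log2 fold change was 0.58 (limma, adjusted p 0.168).

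Of 14 genes of glucocorticoid metabolism and transport, 5 passed the filter on low values, so these 5 were already the better expressed ones. All 5 were positive (85.8% of all genes), 3 had all homozygous libraries above (34.7%), 3 had an unadjusted p under 0.05 (24.3%), and the median was 0.43, beside 0.26. H6pd is given above, and Abcb4, a lipid transporter of the P-glycoprotein family, measured 65.3, 57.7 and 57.9 TPM against 48.0, 42.2 and 43.8 TPM (log2 fold change 0.43; limma, adjusted p 0.168). Among 34 tested direct glucocorticoid target genes of 35 listed, 27 were positive (85.8% of all genes), 15 had an unadjusted p under 0.05 (24.3%), 14 had all homozygous libraries above (34.7%) and 1 had all below (0.730%). The median was 0.51, beside 0.26 for all genes. Foxo1, a transcription factor of muscle protein breakdown, measured 4.95, 7.39 and 7.14 TPM against 2.16, 3.03 and 2.95 TPM, a log2 fold change of 1.01 (SE 0.19). Net1 measured 17.02, 30.95 and 47.2 TPM against 9.65, 10.2 and 7.45 TPM, with a log2 fold change of 1.59 (SE 0.33), and the adjusted p of both genes was 0.168 in limma. Of 9 steroid receptors and relatives, 7 were tested. Counting Nr3c1 and Nr3c2, which had the 2 smallest p-values, 6 were positive (85.8% of all genes), 2 had an unadjusted p under 0.05 (24.3%), 3 had all homozygous libraries above (34.7%) and 1 all below (0.730%), and the median was 0.53, beside 0.26.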

How the data were processed

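The authors deposited a table of TPM in which rows are Ensembl transcripts and columns are libraries, per the file headers; each library summed to 1000000. FastQC, Trimmomatic, HISAT2, kallisto and the build mm10 are named in the submitters' processing notes, with no role or version, and no annotation release is stated. Columns were matched to libraries by title, and 0 were left unmatched. Transcripts were matched by identifier without version to GENCODE M21 (GRCm38): 103635 of 105129 rows and all 54 member rows. The unit fits no count test, so TPM was summed per symbol, transformed to log2(TPM + 1) and tested with limma 3.58.1 (R 4.3.3; trend and robust estimation, genotype only) on genes, or isoforms, that reached 1 TPM in 3 libraries or more. Shares and ratios were compared by two-sided exact permutation over the 6 libraries, whose smallest p is 0.10.

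Fragments were estimated from steps in low TPM values: 68.3% to 70.9% of 657 to 704 values per library were within 0.03 of whole numbers of fragments. The length offset and scale of each library were chosen to make this percentage as high as possible. For an offset and scale fixed beforehand chance gives 6%, which is too low a yardstick for the best of a search. These are approximations, and intervals for counting error were not formed from them. The quoted fragment numbers show where depth is thin. On simulated data (11099 genes, 200 changed), the test recovered 0%, 51% and 89.5% of genes changed by 0.5, 1 and 2 on the log2 scale. It called 0, 6 and 8 unchanged genes. The simulated noise was independent between genes, with no shift shared within a library, so these rates need not hold for the real libraries. A 31-base comparison of GENCODE transcripts, on either strand, gave shared sequence.

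The members, the 5 gene lists and the 11 marker lists were chosen with earlier results of these data known. Named are all members, all Nr3c1 isoforms, the leading isoform and the isoform with the smallest p of each other member, the 2 genes with the smallest p of each list and the 5 genes closest to Nr3c1; 1 gene that this rule selects is not reported here. Other isoforms and fits named (Hsp90aa1-204, Nr3c2-207, Hsd11b1-205, a library left out) were picked after their values were seen. The alternatives were other scalings, filters and pseudocounts, array weights, a replicate block, each library left out, and protein-coding rows only, the last chosen after seeing the data.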

Additional observations from a re-analysis of the deposited data

How the results depend on the processing

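Of the 10 members, 5 kept their sign in all 15 alternatives (Nr3c1, Nr3c2, Hsp90aa1, Hsp90ab1 and Fkbp5), and of 14 named isoforms 11 did in the 14 run for isoforms; the cause of each change below was not tested. Member genes called numbered 1 with array weights (Nr3c1) and 0 otherwise, in limma. Members whose groups did not overlap numbered 3 to 5 with 1 library left out, and 5 without homozygous replicate 1, WT replicate 1 or WT replicate 3, where 5516, 5214 and 4946 of all 11099 genes did not overlap. They numbered 2 with mitochondrial transcripts left out, where 2430 of 11680 genes did not overlap. Over all genes 810 were called with array weights and 0 to 2 with a library left out. Isoforms called over all were 9, and 3 with quantile normalization, 5 with median centring, 5 without mitochondrial transcripts, 0 with no filter, 4 with a pseudocount of 0.1, 3 with the length trend taken out, 14 with array weights and 0 to 36 with a library left out (36 without WT replicate 1). With the replicate number as a block, 0 isoforms, 0 genes and 0 members were called. Across all genes tested, same-numbered libraries did not deviate together (correlations -0.071, 0.061 and -0.013). With 3 libraries per group this check cannot decide whether the numbers pair the libraries.

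With quantile normalization, median centring and the length trend removed, log2 fold changes reversed to -0.10, -0.18 and -0.15 for Fkbp4, -0.18, -0.19 and -0.13 for Ptges3, -0.14, -0.21 and -0.17 for Stip1, -0.0558, -0.0827 and -0.0841 for Hsp90aa1-201 and -0.12, -0.19 and -0.17 for Fkbp4-201. Array weights gave -0.0022 for Ptges3, 0.0737 for Stub1 and -0.0035 for Hsd11b1. Leaving out 1 library gave -0.0942 to 0.26 for Ptges3, -0.11 to 0.12 for Stub1, -0.0613 to 0.43 for Hsp90aa1-201 and -0.23 to 0.11 for Ptges3-201. The log2 difference of the Hsd11b1 to H6pd ratio, -0.19 from gene sums, was 7.34 from leading isoforms only, because Hsd11b1-203 was near 0 in WT replicate 3. Depth limits the minor Nr3c1, Nr3c2 and Hsd11b1 rows, which rest on few fragments.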
